A study of Homo sapiens with 7 samples.

Results

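TMCC2, the gene at which CRISPR interference was aimed, was examined together with 9 other genes of its stretch of chromosome 1: DSTYK, RBBP5, KLHDC8A, TMEM81, LRRN2, MDM4, ELK4, NUCKS1 and SLC41A1. The neighbours were taken by position, as genes within about 1 Mb of TMCC2 that were abundant enough to measure. The set is not complete, since PPP1R15B, CTSE and SRGAP2 also begin within 1 Mb and were tested. The 10 genes were found by symbol among the 32738 rows of the count table. All 10 passed the filter on low counts that left 10212 genes for testing. The cells were HUDEP-2, an immortalised line of human erythroid progenitors. The groups were cells with TMCC2 guide 1 (2 libraries), cells with TMCC2 guide 2 (2 libraries) and cells with a non-targeting guide (3 libraries). Per the labels, all 3 groups were infected with lentivirus for CRISPR interference, guides 1 and 2 were aimed at an enhancer that lies upstream of the isoform of TMCC2 specific to erythroid cells, and all then spent 72 h in erythroid differentiation medium containing 3 IU/ml erythropoietin, after growth in medium with stem cell factor, erythropoietin, dexamethasone and doxycycline. The guides therefore act on 1 cell line at 1 time point, in a pool of infected cells whose infected share the labels do not give, and the counts do not separate fewer cells with a transcript from less transcript per cell.

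In CRISPR interference a Cas9 protein that cannot cut DNA is led by a guide RNA to a chosen site, where it and any repressor fused to it lower transcription. A repressor placed at an enhancer can lower the gene that the enhancer drives and, where it reaches them, other genes of the same stretch of chromosome, so the neighbours are the natural comparison for the target. TMCC2 encodes a protein of the endoplasmic reticulum membrane with a coiled-coil domain, and it is known as one of the genes that human erythroid cells express strongly as they mature.

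The 3 guides are shown because they define the groups, with the 10 bases at the 3' end, next to which the Cas9 recognition motif lies in the genome, in capitals.
TMCC2 guide 1: gtcgtgctgcAGGTGAAGTG
TMCC2 guide 2: ccatccttcaGAGTAAACAG
Non-targeting guide: atcgcgaggacCCGTTCCGCC
The TMCC2 guides have 20 bases and the non-targeting guide has 21. G and C make up 12 bases of guide 1, 9 bases of guide 2 and 15 bases of the non-targeting guide. None of the 3 had an exact match on either strand in 35116 RefSeq promoter windows (GRCh38.p14), each of which spans 250 bases before to 50 bases after an annotated start. The nearest approach of guide 1 and of guide 2 to a TMCC2 window left 7 mismatches each, counted without gaps, against 9 for the longer non-targeting guide. Over the 15 windows of TMCC2 and its neighbours all 3 guides came equally near, with 7 mismatches at best. The enhancer itself was not located here.

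TMCC2 has 6 such windows, because RefSeq gives it 6 separate starts, and the deposited counts sum over all of its transcripts. The windows of start 1 and start 5 in genome order, 28.3 kb apart on the plus strand of chromosome 1 (GRCh38.p14), are shown because the labels speak of an isoform of its own for erythroid cells and the windows differ in composition. Capitals mark AGATA or TGATA when followed by A or G, on either strand, which are forms of the motif of GATA factors such as GATA1, the leading transcription factor of red cell formation.
TMCC2 start 1, chr1:205227696-205227995: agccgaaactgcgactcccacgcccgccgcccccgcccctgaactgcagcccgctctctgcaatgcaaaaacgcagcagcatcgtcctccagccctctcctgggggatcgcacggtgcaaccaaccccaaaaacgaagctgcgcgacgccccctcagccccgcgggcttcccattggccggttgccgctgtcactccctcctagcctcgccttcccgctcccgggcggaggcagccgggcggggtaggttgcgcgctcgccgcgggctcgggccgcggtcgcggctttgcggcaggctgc
TMCC2 start 5, chr1:205255952-205256251: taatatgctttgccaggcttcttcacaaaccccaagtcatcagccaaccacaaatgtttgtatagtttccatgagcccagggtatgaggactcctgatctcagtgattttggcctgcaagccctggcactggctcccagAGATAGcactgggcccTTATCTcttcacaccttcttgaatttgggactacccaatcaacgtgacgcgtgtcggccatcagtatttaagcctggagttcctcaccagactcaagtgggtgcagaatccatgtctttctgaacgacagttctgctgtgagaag
The window of start 1 holds no such letters and is 71.7% G and C. That of start 5 holds 2 of them, AGATAG beginning 111 bases and TTATCT beginning 95 bases before the start, which do not overlap, and is 49.3% G and C. Among all 35116 windows, 8769 (25%) hold at least 1 match and 6.08% hold 2 or more. Of the 6 TMCC2 windows 3 hold a match, as do 2 of the 9 windows of neighbours that the table gives, those of MDM4 and NUCKS1. The window of start 5 is the only TMCC2 window with 2 matches, so the pair shown is not typical of the 6. The window of start 4 holds 1 match and is lower in G and C than that of start 5, at 48.0%. Which of the 6 starts these libraries used cannot be read from counts per gene.

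The genes lie in the following order. In GENCODE release 29 (GRCh38; the counts were made on GRCh37), TMCC2 occupies chr1:205228176-205285632 on the plus strand and has 10 transcripts with 8 distinct starts. DSTYK, on the minus strand at chr1:205142505-205211566, ends 16.6 kb before TMCC2 begins, so the 5' ends of these genes face each other. NUAK2, on the minus strand on the other side, has its 3' end 16.4 kb beyond TMCC2. Measured from that start of TMCC2 to each 5' end, RBBP5 lies 106 kb, TMEM81 144 kb, LRRN2 542 kb and MDM4 712 kb on the DSTYK side, and KLHDC8A 129 kb, ELK4 404 kb, NUCKS1 522 kb and SLC41A1 586 kb on the other. An antisense RNA gene is annotated within TMCC2, and MFSD4A overlaps ELK4 on the opposite strand. The Smart-seq2 chemistry named in the labels does not mark strand, so reads of such partners cannot be told apart; the row of MFSD4, the older symbol of MFSD4A, had at most 4 counts in a library.

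Library totals ran from 10297535 to 10870809 counts with a guide to TMCC2 and from 9780800 to 11350113 without. Erythroid markers (HBA1, HBA2, HBB, SLC4A1, ALAS2, KLF1 and GATA1) made up 24.1% to 25.5% of the counts with a guide and 21.7% to 25.2% without. The markers of myeloid, megakaryocyte and fibroblast cells (4 each) and of lymphoid cells (3) summed to at most 0.971 CPM (counts scaled to library size) per list in any library, with MPO, CD3E, MS4A1, PF4, PPBP, COL1A2 and DCN at 0 throughout. Among the controls, non-targeting replicate 1 differed most: its deviation from them followed transcript GC content with a Spearman rho of -0.704 across 9424 genes, which are not independent replicates. The differences of the neighbours for the mean of both guides are therefore given with and without it.

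With the guides, TMCC2 transcript fell to 26.9% of the level in non-targeting cells. Guide 1 libraries had 229 and 219 CPM (2327 and 2342 counts), scaled by TMM, the edgeR adjustment of library sizes. Guide 2 libraries had 229 and 260 CPM (2454 and 2759 counts), and non-targeting libraries had 832, 838 and 936 CPM (9425, 9316 and 8698 counts). Every guide library lay below every control, with no overlap between the groups. Of all tested genes, 5.4% likewise had no overlap between guide libraries and controls, in either direction. The group levels were 224 ± 7.37 CPM with guide 1 (SD, n = 2), 245 ± 21.9 CPM with guide 2 (SD, n = 2) and 869 ± 58.5 CPM in the controls (SD, n = 3).

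For the mean of both guides the log2 fold change of TMCC2 was -1.89, with a 95% interval of -2.09 to -1.70 (Benjamini-Hochberg adjusted p = 4.42e-08 from the quasi-likelihood test of edgeR). That interval corresponds to 23.5% to 30.8% of the control level. Guide 1 left 25.8% (95% interval 21.7% to 30.6%, edgeR adjusted p = 8.58e-07) and guide 2 left 28.2% (95% interval 23.7% to 33.5%, edgeR adjusted p = 1.98e-06). Set against each other, guide 2 stood at 109% of guide 1 for TMCC2, with an interval of 91.6% to 131% (edgeR adjusted p = 0.983). Of all tested genes, 0.0196% were called for the mean of both guides, 0.0294% for guide 1, 0.00979% for guide 2 and 0% for guide 2 against guide 1. TMCC2 ranked first by p-value in each of the first 3 comparisons.

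**Figure D1:**
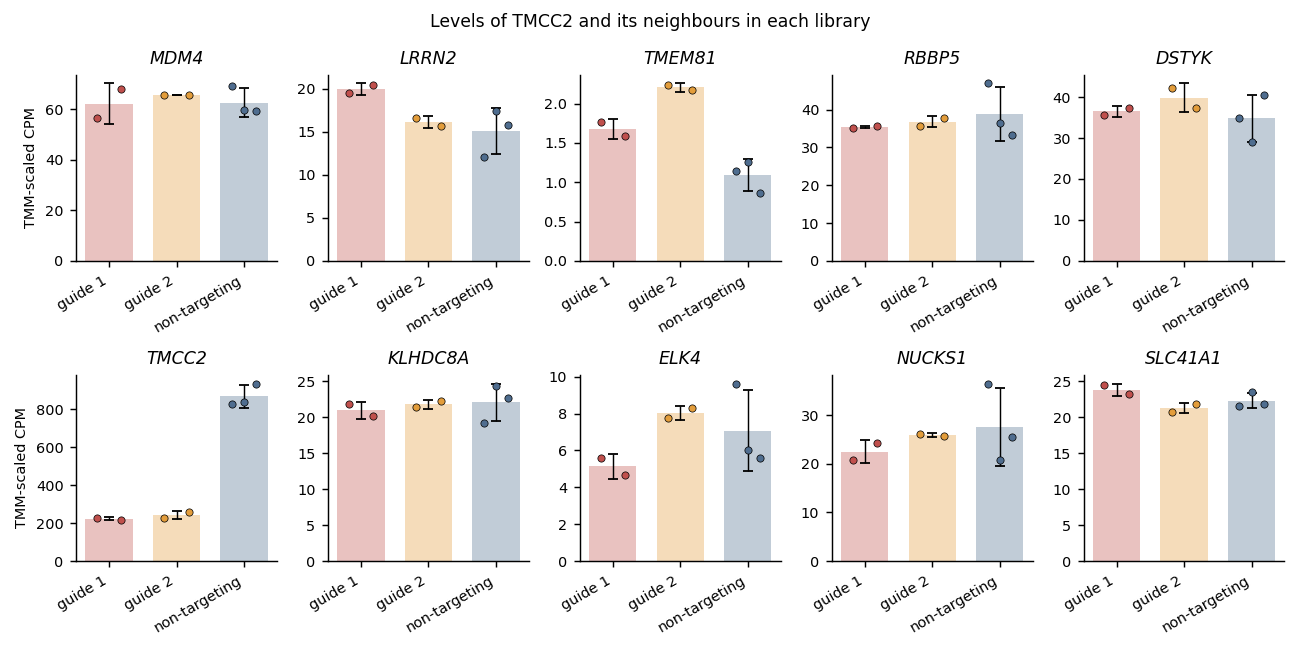
TMM-scaled CPM (vertical axes, each from 0) of the 10 genes in chromosome order for guide 1, guide 2 and non-targeting libraries. Bar heights give group means with SDs, and each point is 1 library (2, 2 and 3 per group); TMCC2 lies at 219 to 260 CPM with a guide and 832 to 936 CPM without, while the points of the other genes overlap between the guide libraries together and the controls, except for TMEM81.

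Even after the fall TMCC2 was the most abundant of the 10 genes. With a guide to TMCC2 it averaged 234 ± 17.99 CPM (SD, n = 4), a level above that of 94.8% of tested genes, and in the controls its level was above that of 98.7%. Per kb of annotated exon it had 41.9 CPM with a guide, which was 5.11 times that of RBBP5, the next gene, and 155 CPM in the controls, or 17.6 times RBBP5. In guide libraries the other genes followed with RBBP5 at 8.19, KLHDC8A at 5.86, MDM4 at 5.81, DSTYK at 4.58, NUCKS1 at 3.69, SLC41A1 at 3.55, LRRN2 at 3.18, TMEM81 at 1.46 and ELK4 at 0.542 CPM per kb. In the controls RBBP5 stood at 8.83, KLHDC8A at 6.05, MDM4 at 5.69, NUCKS1 at 4.21, DSTYK at 4.17, SLC41A1 at 3.51, LRRN2 at 2.66, TMEM81 at 0.818 and ELK4 at 0.583 CPM per kb. In the controls KLHDC8A and MDM4 had SDs of 0.708 and 0.512, and NUCKS1, DSTYK and SLC41A1 had SDs of 1.23, 0.689 and 0.165. TMEM81 and ELK4 had SDs of 0.154 and 0.182. Within each of these sets the order did not exceed the spread, and the highest NUCKS1 value also passed the lowest of KLHDC8A and of MDM4. In guide libraries KLHDC8A and MDM4 (SDs 0.249 and 0.453) overlapped, and likewise NUCKS1, SLC41A1 and LRRN2 (SDs 0.371, 0.253 and 0.400). Every value of DSTYK (SD 0.346) lay above those of NUCKS1, SLC41A1 and LRRN2. The exon lengths join all transcripts of a gene and overstate the length of genes that use only some of them here.

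TMCC2 took 48.2% to 52.4% of the counts of the 10 genes in guide libraries and 76.8% to 80.6% in the controls. The 9 neighbours together had 221 and 235 CPM with guide 1, 239 and 237 CPM with guide 2 and 251, 218 and 225 CPM in the controls. Their sums overlap between the groups.

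None of the 9 neighbours was called by edgeR in any of the 4 comparisons, nor by DESeq2. Over all tested genes edgeR called 0.0196% for the mean of both guides, 0.0294% for guide 1, 0.00979% for guide 2 and 0% for guide 2 against guide 1. DESeq2 called 4, 6, 3 and 2 of the 10212 genes in the same order. At such shares a count of 0 of 9 tells little about the neighbours. In each comparison 1 of the 9 had an unadjusted p under 0.05, against 4.19% of all tested genes for the mean of both guides, 4.78% for guide 1, 2.75% for guide 2 and 2.86% for guide 2 against guide 1. The median log2 fold change of the 9 was 0.01 for both guides, beside -0.01 over all genes tested, with 5 of 9 positive. The lowest bound that a 95% interval of any neighbour reached was 66.0% of the control level for both guides (ELK4), 49.1% for guide 1 (ELK4) and 69.8% for guide 2 (NUCKS1). The upper bounds for TMCC2 in the same comparisons were 30.8%, 30.6% and 33.5%, so no neighbour's interval reached that of TMCC2.

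The difference in change was also taken within libraries, as the log2 ratio of TMCC2 counts to those of each neighbour, which needs no scaling between libraries. The ratio to DSTYK averaged 2.62 ± 0.16 with a guide (SD, n = 4) and 4.65 ± 0.18 in the controls (SD, n = 3), a difference of -2.04 on the log2 scale. Over the 9 neighbours this difference ran from -2.70 for TMEM81 to -1.74 for NUCKS1, and for each of them every guide library had a lower ratio than every control. All 9 ratios share the same TMCC2 counts, whose own fall weighs on each of them, so they are not 9 separate results. The exact two-sided permutation test gave p = 0.0571 for each neighbour (0.0571 after adjustment over the 9), which is the smallest that its 35 arrangements allow, so this test could not pass 0.05.

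**Figure D2:**
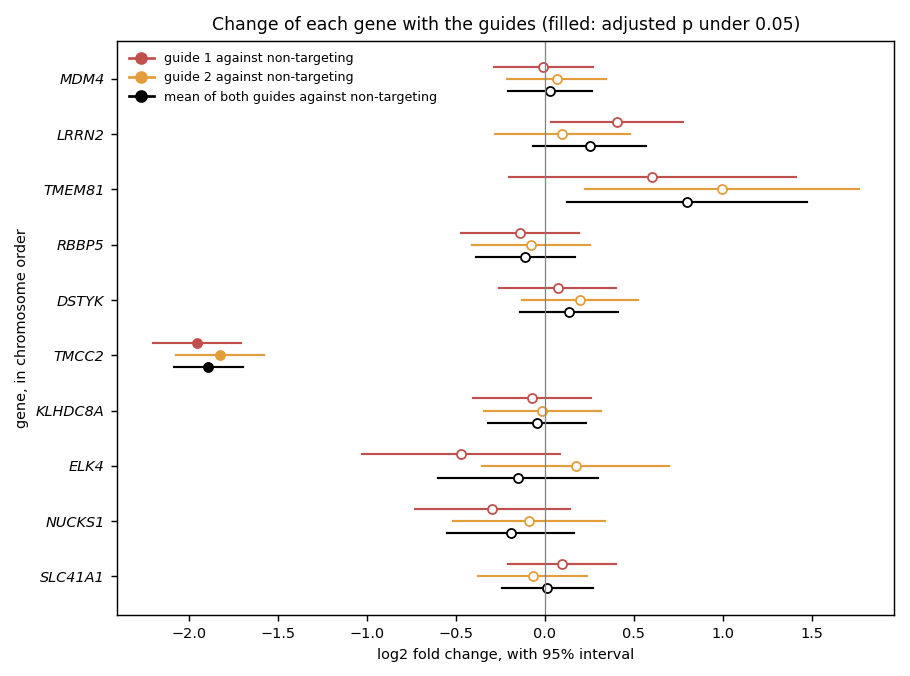
Log2 fold change (horizontal axis) with its 95% interval from edgeR for each gene in chromosome order, for guide 1, guide 2 and the mean of both against non-targeting; filled symbols mark genes called at 0.05 after adjustment. The TMCC2 symbols stand at -1.96, -1.83 and -1.89, and the open points of the neighbours lie between -0.47 (ELK4, guide 1) and 1.00 (TMEM81, guide 2).

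DSTYK, RBBP5 and TMEM81 lie between 16.6 and 144 kb on the side from which TMCC2 starts. DSTYK, a dual serine/threonine and tyrosine protein kinase, had 35.6 and 37.4 CPM with guide 1, 42.3 and 37.3 CPM with guide 2 and 34.9, 28.97 and 40.5 CPM in the controls. The guide libraries fell within or just above the range of the controls. Its log2 difference for both guides was 0.13 (SE 0.13), or 110% of the control level with an interval of 90.6% to 133%. Without control replicate 1 the difference was 0.15 (SE 0.11).

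RBBP5, a core subunit of the complexes that methylate lysine 4 of histone H3, had 35.1 and 35.5 CPM with guide 1, 35.8 and 37.9 CPM with guide 2 and 46.9, 36.4 and 33.3 CPM in the controls. The guide libraries were close to each other and to controls 2 and 3, and control replicate 1 was the highest of the 7. The log2 difference was -0.11 (SE 0.13) with all libraries and 0.05 (SE 0.10) without that control.

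TMEM81, a transmembrane protein known in zebrafish and mouse for a part in the binding of sperm to egg, was the scarcest by counts. It had 18 and 17 counts with guide 1, 24 and 23 counts with guide 2 and 13, 14 and 8 counts in the controls. Every guide library lay above every control, as did or fell below without overlap 5.4% of all tested genes for both guides. The level was 1.94 ± 0.31 CPM with a guide (SD, n = 4) and 1.09 ± 0.21 CPM in the controls (SD, n = 3), a log2 difference of 0.80 (SE 0.32, 95% interval 0.13 to 1.48). The edgeR test gave an unadjusted p = 0.0231 and an adjusted p = 0.998, so the difference was not called. It was positive in every alternative analysis. With every guide library above every control, leaving out 1 library could not turn the sign, so this adds no separate support. For single libraries, the exact 95% Poisson interval of 8 counts is 3.45 to 15.8 and that of 24 counts is 15.4 to 35.7. These intervals cover counting error only, and with no molecular identifiers the reads are not all independent molecules.

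LRRN2 and MDM4 lie farther out on the same side. LRRN2, a leucine-rich repeat membrane protein named for its expression in neurons, had 19.5 and 20.4 CPM with guide 1, 16.6 and 15.7 CPM with guide 2 and 12.1, 17.4 and 15.8 CPM in the controls. The guide 1 libraries were the highest, above all controls, as were or fell below without overlap 21.6% of tested genes for that guide, and the guide 2 libraries lay within the range of the controls. The log2 difference with guide 1 was 0.40 (SE 0.17; unadjusted p = 0.035 and adjusted p = 0.877, edgeR), and with guide 2 it was 0.10 (SE 0.18). Without control replicate 1, the lowest control for LRRN2, it was 0.26 with guide 1 (SE 0.14, edgeR adjusted p = 0.724) and -0.04 with guide 2 (SE 0.14). For both guides it was 0.25 (SE 0.15) with that control and 0.11 (SE 0.12) without it. MDM4, an inhibitor of p53 and a partner of MDM2, had 56.7 and 67.9 CPM with guide 1, 65.7 and 65.6 CPM with guide 2 and 69.2, 59.6 and 59.2 CPM in the controls. The groups overlapped, and the log2 difference of 0.03 (SE 0.11) leaves an interval of 86.7% to 120% of the control level, the narrowest of the 9 neighbours. Without control replicate 1 it was 0.11 (SE 0.08).

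On the other side, KLHDC8A, a protein with kelch repeats, is the nearest gene with enough counts. It had 21.8 and 20.2 CPM with guide 1, 21.4 and 22.3 CPM with guide 2 and 19.2, 24.3 and 22.7 CPM in the controls. The guide libraries lay inside the range of the controls, and the log2 difference was -0.04 (SE 0.13), or -0.14 (SE 0.11) without control replicate 1. NUAK2, an AMPK-related kinase and the closest gene on that side, had 7 and 1 counts with guide 1, 6 and 8 counts with guide 2 and 9, 0 and 7 counts in the controls. It was below the filter and was not tested, and the count of 0 in non-targeting replicate 2 allows up to 3 counts, or 0.27 CPM there.

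ELK4, a ternary complex factor that acts with the serum response factor, had 5.61 and 4.67 CPM with guide 1, 7.75 and 8.30 CPM with guide 2 and 9.62, 6.03 and 5.60 CPM in the controls. Both guide 2 libraries stood above both guide 1 libraries, and 44.1% of tested genes had no overlap between these groups in either direction. Guide 2 against guide 1 gave a log2 difference of 0.64 (SE 0.28, 95% interval 0.05 to 1.24), with an unadjusted p = 0.0364 and an adjusted p = 0.983 by edgeR. For both guides together the log2 difference was -0.15 (SE 0.21) with all libraries and 0.14 (SE 0.20) without control replicate 1. Against the controls, guide 1 alone gave -0.47 (SE 0.26) with that library and -0.18 (SE 0.23) without it, and guide 2 alone gave 0.17 (SE 0.24) with it and 0.46 (SE 0.22) without it.

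NUCKS1, a chromatin-associated protein that casein kinase and cyclin-dependent kinases phosphorylate, had 20.8 and 24.2 CPM with guide 1, 26.2 and 25.6 CPM with guide 2 and 36.4, 20.8 and 25.4 CPM in the controls. Control replicate 1 was again the highest library, and the other 6 ran from 20.8 to 26.2 CPM. The log2 difference was -0.19 (SE 0.17) with it and 0.07 (SE 0.12) without it. SLC41A1, an exporter of magnesium, had 24.4 and 23.2 CPM with guide 1, 20.7 and 21.8 CPM with guide 2 and 21.5, 23.5 and 21.8 CPM in the controls. Its groups overlapped, at a log2 difference of 0.01 (SE 0.12) and an interval of 84.6% to 120% of the control level, and at -0.01 (SE 0.11) without control replicate 1.

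Control replicate 1 moved the neighbours in both directions. Relative to the mean of the other 2 controls it was higher by 0.68 on the log2 scale for ELK4, by 0.65 for NUCKS1, by 0.43 for RBBP5 and by 0.22 for MDM4, and it was lower for LRRN2, at -0.44, and for KLHDC8A, at -0.28. Over all tested genes the SD of this deviation was 0.415, so deviations of this size were not particular to the neighbours. That of ELK4 lay above 92.7% of tested genes and that of LRRN2 above 9.46%. The median GC content of the transcripts of NUCKS1 is 39.2%, of MDM4 42.4%, of RBBP5 43.8% and of ELK4 46.9%, against 61.2% for LRRN2 and 61.3% for KLHDC8A. DSTYK and TMEM81, at 46.7% and 47.5% GC, deviated by only 0.03 and 0.09, and SLC41A1, at 51.5%, by -0.07. TMCC2, at 59.5% GC, deviated by -0.09 in that library. The part of GC content in these values was not tested.

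Without that library the log2 change of TMCC2 was -1.92 (SE 0.06), beside -1.89 with it. The neighbours other than TMEM81 (0.83, SE 0.39) then lay between -0.14 (KLHDC8A) and 0.15 (DSTYK), and none was called by edgeR, with a lowest adjusted p = 0.449. Over all genes the count called was then 53 of 10107, or 0.524%. The lowest interval bound among neighbours was 77.8% of the control level, for KLHDC8A.

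**Figure D3:**
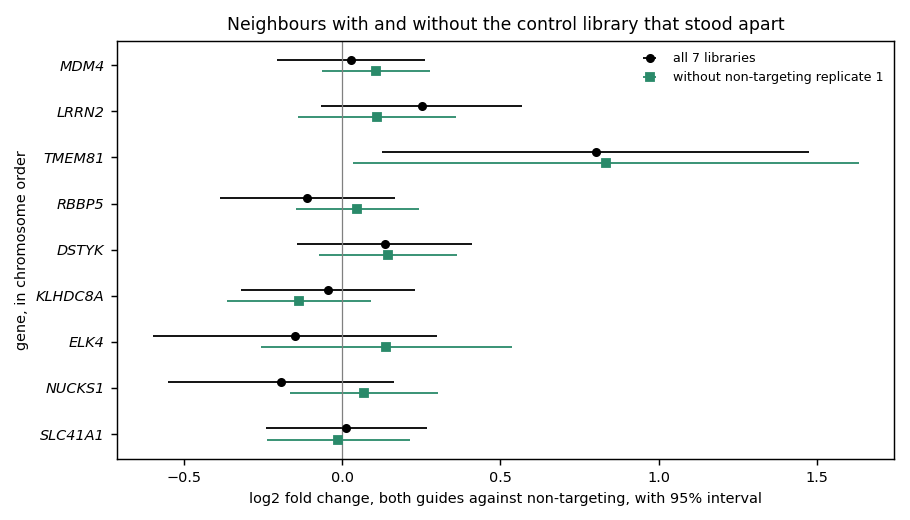
Log2 fold change with its 95% interval (horizontal axis) of the 9 neighbours for both guides against non-targeting, with all 7 libraries (circles) and without non-targeting replicate 1 (squares). RBBP5, ELK4 and NUCKS1 lie at -0.11, -0.15 and -0.19 with all libraries and at 0.05, 0.14 and 0.07 without that library.

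The view was then widened to 39 genes listed by name around TMCC2, of which 38 had a row in the table and 17 were tested. Of these 17, TMCC2 was called lower and none was called higher by edgeR. Without TMCC2 the other 16 had a median log2 difference of 0.01, beside -0.01 over all genes tested. They had 1 unadjusted p under 0.05 (TMEM81) and 0 called by DESeq2. Over all tested genes, 0.0196% were called by edgeR and 4.19% had an unadjusted p under 0.05. Of the tested genes, 13 begin within 1 Mb of the first TMCC2 start, and 3 of them are not among the 10. These are PPP1R15B, a regulatory subunit of a phosphatase of the translation factor eIF2 (-0.13, SE 0.11), CTSE, the protease cathepsin E (-0.36, SE 0.32), and SRGAP2 (0.01, SE 0.12), whose near-identical copies elsewhere on the chromosome make its counts uncertain. They were singled out after their values were seen. No untested gene of the 21 exceeded 15 counts in a library, and 9 of them had 0 in all 7. With the same limit of 3 counts, a 0 allows at most 0.265 to 0.323 CPM in a library.

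**Figure D4:**
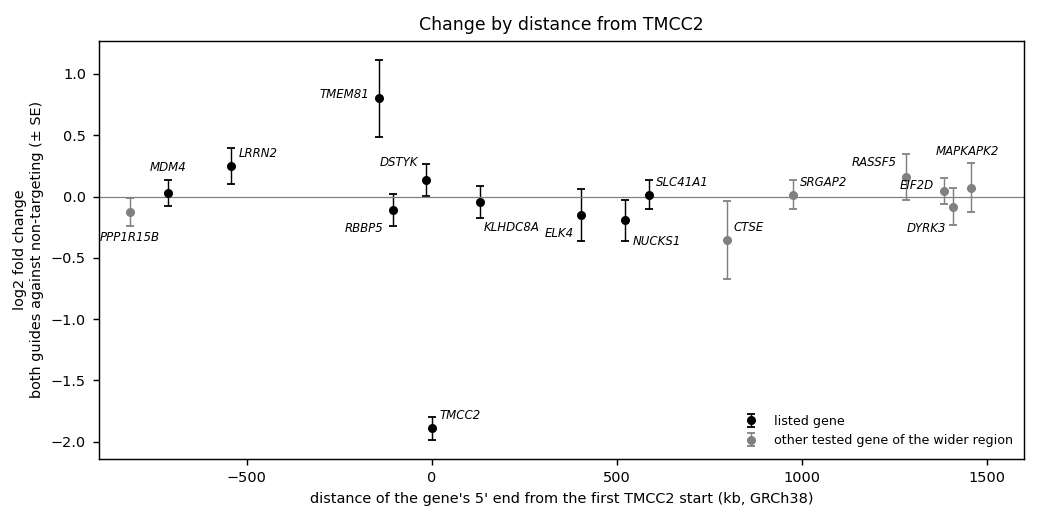
Log2 fold change of both guides against non-targeting (vertical axis, with SE) by the distance of each gene's 5' end from the first TMCC2 start (horizontal axis, kb) for the 17 tested genes of the wider region. TMCC2 lies at -1.89 and the other 16 lie between -0.36 (CTSE) and 0.80 (TMEM81).

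Genes that work with the members were compared for the mean of both guides. Over all tested genes, edgeR called 0.0196% and gave 4.19% an unadjusted p under 0.05. Counts of 0 or 1 in the short lists below are therefore near the share over all genes. In the TMCC family, TMCC1 reached 21 counts in its highest library and gave a log2 difference of 0.38 (SE 0.41), and TMCC3 reached 3 counts and was not tested. All 14 subunits of the histone H3 lysine 4 methyltransferases in which RBBP5 takes part were tested, and 0 were called by edgeR or DESeq2. Their log2 differences ran from -0.19 (DPY30) to 0.17 (KMT2A) with a median of 0.00, and 0 had an unadjusted p under 0.05. All 14 regulators and targets of p53 around MDM4 were tested, with a median of 0.02, 0 called by either tool and 1 unadjusted p under 0.05, that of TP53INP1 (-0.37, SE 0.13). CDKN1A, the p53 target that halts the cell cycle, differed by 0.02 (SE 0.09) and MDM2 by -0.19 (SE 0.16). Of 6 genes of the serum response factor and its partners around ELK4, 5 were tested, with a median of -0.04. Of 11 magnesium transporter genes around SLC41A1, 9 were tested, with a median of -0.05. In these 2 lists 0 were called by edgeR or DESeq2 and 0 had an unadjusted p under 0.05.

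Finally, the genes whose profile over the 7 libraries was closest to that of TMCC2 were listed, by the root mean square difference of log2 CPM after each gene was centred on its own mean. The distance was 0.94 for a gene with no variation. Among 7224 genes with a mean of at least 5 CPM, the 5 closest of those taken by name were FOS at 0.49, PAPD5 at 0.63, CYP1B1 at 0.65, FXR2 at 0.67 and BCL2L12 at 0.69. FOS, an immediate-early gene whose product pairs with JUN proteins, averaged 65.8 ± 3.37 CPM with a guide (SD, n = 4) and 126 ± 17.2 CPM in the controls (SD, n = 3). For the mean of both guides it was called lower by edgeR with an adjusted p = 0.00241. The other 4 were not called. With guide 2 alone TMCC2 was the only gene called by edgeR, so FOS was not called there. For both guides the call of FOS was likewise lost with replicate number added to the model and without guide 1 replicate 2. FXR2, an RNA-binding relative of the fragile X protein, had 6.99 and 6.25 CPM with guide 1, 6.63 and 8.49 CPM with guide 2 and 9.97, 10.3 and 10.7 CPM in the controls. Guide libraries and controls also had no overlap, in either direction, for 5.4% of all tested genes. Among the neighbours above 5 CPM the distance ran from 0.90 for NUCKS1 to 1.09 for LRRN2, near that of a gene with no variation. These distances are a description of 7 libraries and carry no test. The 5 genes were chosen for likeness to TMCC2, so lower levels with a guide follow from the choice and add no support.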

How the data were processed

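The 7 HUDEP-2 libraries were made by Smart-seq2 with Nextera indexing, per the labels. The deposited table holds raw counts by gene symbol; STAR and GRCh37 (hg19) are named in the submitters' processing notes, and for the counter, annotation and strand setting the sources used here give no name. Columns were matched to samples by name. Whether replicates were separate cultures is not in the labels. The p-values set differences only against the spread between these libraries, and that spread may be technical.

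Counts were tested with edgeR 4.0.16 (R 4.3.3): filterByExpr with a minimum count of 10, TMM scaling, and a quasi-likelihood model of the 3 groups over all 7 libraries with 4 residual degrees of freedom and a biological coefficient of variation of 12.45%. Calls needed 0.05 or less after Benjamini-Hochberg adjustment across 10212 genes. The guide comparisons share the same 3 non-targeting libraries. CPM values are relative to TMM-scaled totals. DESeq2 1.42.0, other scalings, no filter, a replicate block, fits to the compared groups alone and leaving out each library were alternatives. Log2 count ratios used a pseudocount of 0.5 and exact permutation in scipy 1.17.1. The edgeR fit for the mean of both guides was also run on simulated counts, in which no library stood apart as non-targeting replicate 1 does. Distances, exon lengths and GC content came from GENCODE release 29 (GRCh38), matched by symbol to all 10 genes and to 92.3% of tested genes for GC content. Promoter windows came from RefSeq (GRCh38.p14) and covered 9 of the 10 genes. Older symbols were looked up in RefSeq synonyms, which found no row for BLACAT1.

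The text names the 10 genes, called genes of the wider lists and, for the likeness to TMCC2, the 5 closest genes with a mean of at least 5 CPM, leaving out clones, pseudogenes, small RNAs and readthroughs. CDKN1A, MDM2, TP53INP1, the ends of list ranges and the regional genes outside the 10 were named after their values were seen. The members and lists were chosen with earlier results of these data known. Part of the marker lists is not reported here.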

Additional observations from a re-analysis of the deposited data

How the results depend on the processing

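TMCC2 stayed called lower for both guides in all 13 alternatives, with adjusted p from 5.93e-76 to 5.09e-06 and a log2 change of -1.94 to -1.84 when 1 library was left out. Of 495 neighbour values under alternatives 0 were called (lowest adjusted p 0.174), and 27 changed sign. Those that did so outside the left-out libraries were KLHDC8A with guide 2 (0.027 with total counts, 0.0079 with the replicate block) and MDM4 for both guides (-0.011 with the replicate block). With the replicate block TMCC2 gave -1.84 for both guides (SE 0.12), -1.90 for guide 1 and -1.77 for guide 2. Same-numbered libraries correlated at -0.19 to 0.03 in their deviations from group means. In a guide group of 2 libraries these deviations mirror each other, so the values cannot decide whether the numbers pair the libraries.

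The number of genes called, for both guides, guide 1, guide 2 and guide 2 against guide 1, was 8, 19, 4 and 2 without the filter and 4, 6, 3 and 2 by DESeq2. The replicate block gave 1 for both guides and 1 for guide 2 against guide 1, and fitting only the guide groups gave 19 for the last. Leaving out 1 library gave 1 to 53, 1 to 59, 1 to 128 and 0 to 32. The highest of each came without non-targeting replicate 1. The counts of 1 came without guide 1 replicate 2 for both guides, and without either guide 1 replicate for guide 1; without non-targeting replicate 3 guide 1 gave 2, and without non-targeting replicate 2 the guides differed at 1 gene. The median of the wider region was 0.039 for guide 2 and 0.12 for guide 2 against guide 1 with total counts, 0.064 for guide 1 and 0.0 for guide 2 against guide 1 without the filter, and -0.045 for guide 1 with the replicate block. Leaving out 1 library gave medians of -0.035 to 0.028 for both guides, -0.048 to 0.059 for guide 1, -0.062 to 0.031 for guide 2 and -0.0023 to 0.059 for guide 2 against guide 1. The cause of these shifts was not tested.

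Leaving out 1 library changed the sign of these log2 differences. For both guides the range was -0.21 to 0.048 for RBBP5, -0.14 to 0.032 for KLHDC8A, -0.039 to 0.11 for MDM4, -0.29 to 0.14 for ELK4, -0.36 to 0.070 for NUCKS1 and -0.012 to 0.053 for SLC41A1. For guide 1 it was -0.044 to 0.19 for DSTYK, -0.24 to 0.017 for RBBP5, -0.17 to 0.0044 for KLHDC8A and -0.15 to 0.12 for MDM4. For guide 2 it was -0.18 to 0.079 for RBBP5, -0.11 to 0.060 for KLHDC8A, -0.041 to 0.22 for LRRN2 and -0.26 to 0.17 for NUCKS1. For guide 2 against guide 1 it was -0.0023 to 0.11 for KLHDC8A and -0.050 to 0.21 for MDM4. Depth limits TMEM81 and the untested genes most, and SEs of 0.11 to 0.32 for both guides leave small changes of neighbours undetectable.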
